A study of Mus musculus with 6 samples.

Results

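The genes of oxidative phosphorylation were examined in innate lymphoid cell precursors (ILCPs), the marrow progenitors of the innate lymphoid lineages. Members were taken by symbol: the mitochondrially encoded mRNAs, the Ndufa, Ndufb, Ndufc, Ndufs and Ndufv subunits of complex I, the 4 Sdh subunits of complex II, Cox4 to Cox8 of complex IV and Atp5 of complex V. Names with -ps (1 gene) and Ndufaf assembly factors (8 genes) were left out. This gave 85 of the 16383 genes analysed, 13 encoded in the mitochondrial genome and 72 in the nucleus. The mitochondrial members were 7 subunits of complex I, 1 of complex III, 3 of complex IV and 2 of complex V. The nuclear members were 36 of complex I, 4 of complex II, 15 of complex IV with Ndufa4 counted there, and 17 named Atp5, counted with complex V. The symbol rule also takes in Cox7a2l, a factor that joins respiratory complexes into supercomplexes, and Atp5s and Atp5sl, whose products are not parts of the ATP synthase itself. Mitochondrial ribosomal and transfer RNAs, the nuclear Uqcr subunits of complex III, Cox4i2, Cox6a2 and Ndufa4l2 were not analysed here.

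Both groups came from the marrow of Rag1cre;ET-2 mice of the C57BL/6 strain, 4 to 5 mice pooled per replicate. GFP+ ILCPs expressed ET-2, and GFP− ILCPs of the same pools, which carry the same alleles, did not. ET-2 is known as a fusion protein built to raise E protein activity, and Cre driven by Rag1 marks cells with a history of Rag1 expression. Both fractions were gated by flow cytometry on IL7Rα+, α4β7+ and CD90+ cells that lacked lineage markers, Flt3 and CD25, with 3 libraries of each. Values given as a set of 3 follow the replicate numbers 1, 2 and 3. No group carried Cre without ET-2, so Rag1-cre history and ET-2 cannot be told apart.

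In oxidative phosphorylation, complexes I and II take electrons from NADH and succinate, complex III passes them through cytochrome c to complex IV, which reduces oxygen, and complex V makes ATP from the proton gradient. Subunits of complexes I, III, IV and V come from 2 genomes, whereas complex II is encoded wholly in the nucleus. Mitochondrial mRNAs are cut out of long transcripts of both strands of a small circular genome, and fragments of that genome also sit in the nuclear chromosomes as pseudogenes.

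The GFP+ libraries held 10432461 to 15042354 estimated counts and the GFP− libraries 11680512 to 19038554, with 11240 to 14758 and 13786 to 15016 genes above 0. Among 13 genes of ILC precursors in the table, Il7r was at 1259 to 2471 CPM (counts scaled to the library size by TMM) in GFP+ and 1357 to 2679 CPM in GFP− libraries. The integrin gene Itga4, the most abundant of them, was at 2675, 6837 and 1795 CPM in the GFP+ libraries, against 2294, 3067 and 6460 CPM in the GFP− libraries. Pdcd1 was the only one of the 13 at 0 in a library, GFP+ replicate 3. Ribosomal protein genes took 8.71% of the counts there, against 1.75 to 2.88% in the other GFP+ and 2.15 to 3.398% in the GFP− libraries. Its 11 plasma and B cell markers summed to 24305 CPM, against 444 to 620 CPM in the other GFP+ and 619 to 1513 CPM in the GFP− libraries, with Igkc at 13677, Ighm at 9705 and Jchain at 802 CPM, each highest there, while the B cell factor Pax5 was at 0. GFP+ replicate 2 and GFP− replicate 3, from different pools, stood apart through their mitochondrial mRNAs, as described next. All libraries were kept. The medians over the members and the mitochondrial to nuclear ratio are given with and without these. Values of single genes are mostly given from all libraries.

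The 13 mitochondrial mRNAs took 0.715, 5.16 and 2.27% of the estimated counts in the GFP+ libraries, against 0.868, 0.974 and 4.63% in the GFP− libraries. The highest library exceeded the lowest 7.21-fold, and both groups contained a high library, so the groups overlapped. The 72 nuclear members took 0.321, 0.406 and 0.471% of counts in GFP+ libraries, against 0.389, 0.394 and 0.378% in GFP− libraries, a range of 1.47-fold. Exact 95% binomial intervals of these shares, which cover counting error only, were at most 0.0224 percentage points wide for the mitochondrial and 0.00832 for the nuclear members. The summed mitochondrial counts were therefore 2.23, 12.7 and 4.81 times the summed nuclear counts in GFP+ libraries, and 2.23, 2.47 and 12.3 times in GFP− libraries. On the log2 scale this ratio averaged 2.36 ± 1.26 in GFP+ and 2.03 ± 1.38 in GFP− libraries (SD, n = 3 each). Their difference, 0.34, was smaller than either SD. By pool, GFP+ minus GFP− was 0.00 in replicate 1, 2.36 in replicate 2 and −1.35 in replicate 3. The difference thus had opposite signs in replicates 2 and 3, and followed which library of the pool was high.

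**Figure D1:**
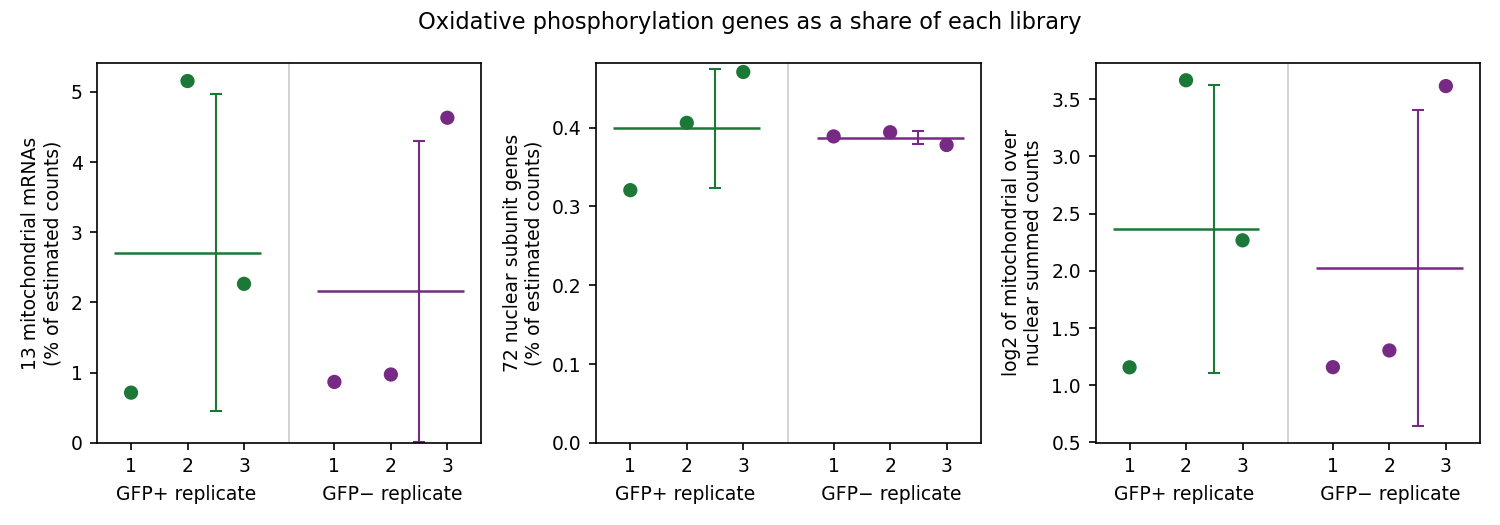
Share of estimated counts in the 13 mitochondrial mRNAs (left) and the 72 nuclear members (middle), and log2 of their ratio (right), in each library, with GFP+ left and GFP− right. Lines are group means and bars SD (n = 3); GFP+ replicate 2 and GFP− replicate 3 hold 5.16 and 4.63% mitochondrial counts, while the nuclear share stays between 0.321 and 0.471%.

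The complex I mRNAs carried the largest part of this range. mt-Nd1, a membrane subunit at the quinone site of complex I, stood at 539, 8381 and 3206 CPM in the GFP+ libraries, against 722, 788 and 6003 CPM in the GFP− libraries. mt-Nd4, a proton-pumping subunit, stood at 613, 9952 and 2467 CPM in GFP+ and 791, 931 and 7466 CPM in GFP− libraries. Both were high in GFP+ replicate 2 and GFP− replicate 3 and intermediate in GFP+ replicate 3, and so were mt-Nd2 and mt-Nd5, further proton-pumping subunits. mt-Nd6, the only mRNA of the set encoded on the opposite strand, stood at 54.6, 898 and 161 CPM in GFP+ libraries and 46.9, 61.5 and 898 CPM in GFP− libraries. Its lowest and highest libraries were 19.2-fold apart. mt-Nd4l, a small membrane subunit, ranged from 110 to 1324 CPM in GFP+ and from 121 to 875 CPM in GFP− libraries. Both groups thus spanned most of each gene's range.

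mt-Cytb, the cytochrome b of complex III, stood at 418, 5034 and 1691 CPM in GFP+ libraries, against 533, 703 and 4405 CPM in GFP− libraries. In complex IV, mt-Co1, which holds the oxygen-reducing centre, stood at 1174, 10878 and 5449 CPM in GFP+ and 1409, 1652 and 11504 CPM in GFP− libraries. For complex V, mt-Atp6, the proton channel subunit, stood at 398, 5848 and 2946 CPM in GFP+ and 626, 746 and 5906 CPM in GFP− libraries, and mt-Atp8, whose frame overlaps that of mt-Atp6, at 487, 5857 and 2412 CPM in GFP+ and 543.5, 701 and 3259 CPM in GFP− libraries. All of these again had GFP+ replicate 2 and GFP− replicate 3 highest and GFP+ replicate 3 next. mt-Co2, which binds cytochrome c, departed from it, at 1069, 4842 and 5015 CPM in GFP+ libraries and 1318, 1636 and 3937 CPM in GFP− libraries. mt-Co3, a further core subunit, did so more, at 193, 707 and 1363 CPM in GFP+ libraries and 298, 294 and 519 CPM in GFP− libraries. For these 2 mRNAs GFP+ replicate 3, not replicate 2, was the highest library.

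**Figure D2:**
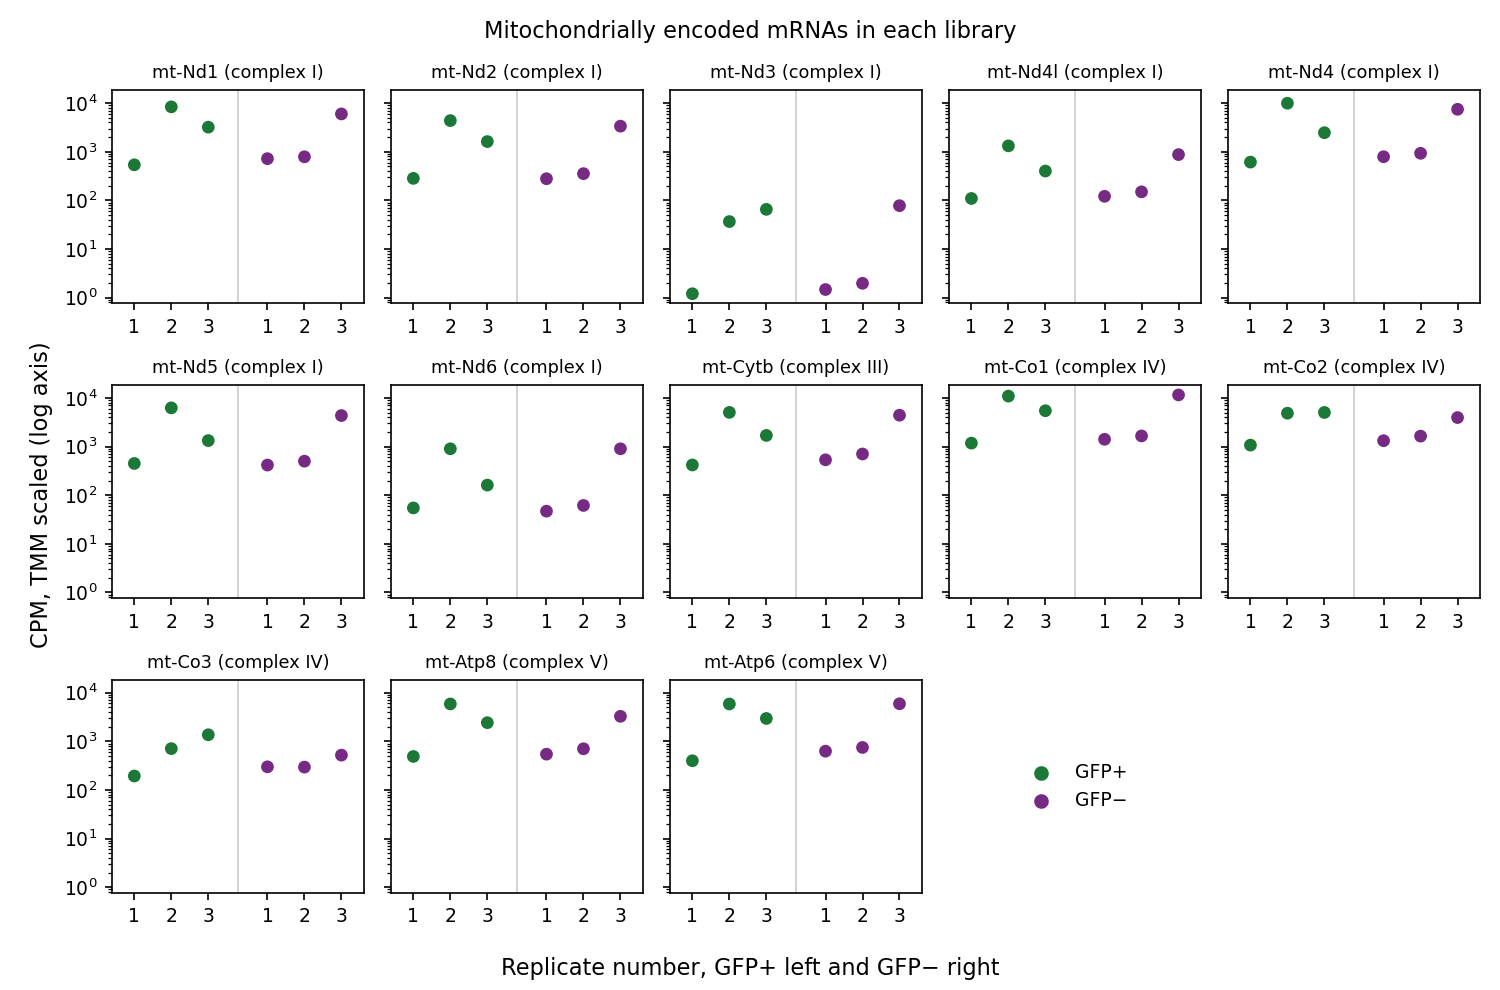
CPM of each mitochondrially encoded mRNA in the 3 GFP+ (left) and 3 GFP− libraries (right), on a log axis. GFP+ replicate 2 and GFP− replicate 3 are high in most panels, and mt-Nd3 spans 64.7-fold at a low level.

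edgeR's quasi-likelihood test called 0 of the 13 mitochondrial mRNAs at an adjusted p under 0.05, with 0 also at an unadjusted p under 0.05; across all 12199 genes tested it called 0% by the adjusted and 3.23% by the unadjusted p. DESeq2 called none of the 13 either, against 0.411% of the genes with an adjusted p. The authors' deposited table lists none of them at an adjusted p under 0.05, against 0.703% of genes. All 13 log2 fold changes (GFP+ over GFP−) were above 0, from 0.15 for mt-Nd6 to 1.03 for mt-Co3, with standard errors of 0.68 to 1.53, and their median was 0.61 beside −0.03 over all genes tested. None of the 13 had groups that did not overlap. The median log2 difference by pool was −0.26, 3.13 and −1.05 in replicates 1, 2 and 3. The median fold change was −0.54 without GFP+ replicate 2, 2.23 without GFP− replicate 3 and 1.11 without both. GFP− replicate 3 was the GFP− library of high mitochondrial share, so leaving it out took the high values from that group only. In that fit 7 of the 13 mitochondrial mRNAs reached an unadjusted p under 0.05, against 2.28% of the 12757 genes tested. None did after adjustment. The mRNAs largely rose and fell together over the libraries, so the 7 do not count as separate results. Without GFP+ replicate 2, 3 of the 84 members tested were at an unadjusted p under 0.05 by edgeR, against 688 of the 12884 genes tested. The 3 were Ndufa6, Ndufb11 and Sdhc, none of them mitochondrial. In such bulk libraries fewer cells of a type and less RNA per cell cannot be told apart.

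Per kilobase of annotated transcript, with no correction for fragment length, the mRNAs kept much of their order from library to library. mt-Atp8 ranked first in every library, with 30.2, 33.1 and 29.9% of the summed mitochondrial counts per kilobase in GFP+ and 27.8, 29.3 and 24.7% in GFP− libraries. Its annotated transcript has 204 bases and overlaps that of mt-Atp6, so this rank rests on a short length and is not the level of a separate molecule. Not divided by length, its mean over the 6 libraries was 2210 CPM, below 2745 CPM for mt-Atp6. The annotated transcripts of mt-Nd4l and mt-Nd4 overlap as well. mt-Nd3, a small subunit of complex I, ranked last in every library, with 0.0448, 0.122 and 0.476% in GFP+ and 0.0439, 0.0486 and 0.347% in GFP− libraries. The order changed most for complex IV. mt-Co2 held 19.8, 8.17 and 18.6% in GFP+ libraries and 20.1, 20.4 and 8.91% in GFP− libraries, and mt-Co3 3.12, 1.04 and 4.400% in GFP+ and 3.97, 3.20 and 1.03% in GFP− libraries. Both shares were thus lowest in the same pair of libraries in which the mitochondrial total was highest.

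Several of these mRNAs have near-identical copies in the nuclear genome. Sequences are shown here because the deposited counts hold separate values for both genes of such a pair. How reads were divided between them is not given. The 4 copies described here form a block on chromosome 1, minus strand, in GRCm38. All 681 bases of the pseudogene Gm28661 (chromosome 1, 24614885 to 24615565) match mt-Co2 (mitochondrial genome, 7013 to 7696), which only has 3 further bases at its end. All 678 bases of Gm10925 match mt-Atp6. Gm28438 differs from mt-Nd3 at 1 of 345 bases, T3C, counted from the 5′ end of mt-Nd3. Gm29216 matches 486 of 492 bases at the 3′ end of mt-Co1, and its 6 differences, T1056A, C1057T, A1059G, A1060G, C1062A and A1066T in positions of mt-Co1, all lie at its start. The stretches that tell each pair apart follow, 5′ to 3′ on the strand of the transcript, from GENCODE vM21 transcripts, with capitals at the bases that differ or are absent from the copy.
mt-Co2, chrM:7637-7696, plus strand: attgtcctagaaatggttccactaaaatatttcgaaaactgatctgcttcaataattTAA
Gm28661, chr1:24614885-24614941, minus strand: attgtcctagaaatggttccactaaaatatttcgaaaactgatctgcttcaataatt
mt-Nd3, chrM:9459-9518, plus strand: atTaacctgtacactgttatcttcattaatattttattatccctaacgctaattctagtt
Gm28438, chr1:24613060-24613119, minus strand: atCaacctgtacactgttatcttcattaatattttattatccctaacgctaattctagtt
mt-Co1, chrM:6381-6440, plus strand: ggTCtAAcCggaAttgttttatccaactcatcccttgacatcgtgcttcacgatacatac
Gm29216, chr1:24616138-24616197, minus strand: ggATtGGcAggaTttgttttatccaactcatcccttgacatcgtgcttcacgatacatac

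Gm28661 had 433, 155276 and 7560 estimated counts in the GFP+ libraries, against 2021, 4626 and 97035 in the GFP− libraries. It therefore exceeded mt-Co2 2.66-fold in GFP+ replicate 2 and 1.92-fold in GFP− replicate 3, and stood at 0.0257 to 0.179 of mt-Co2 in the other libraries. The pair together stood at 1097, 17729 and 5915 CPM in GFP+ libraries and 1460, 1849 and 11485 CPM in GFP− libraries, an order like that of mt-Nd1, with GFP+ replicate 2 highest. Gm10925 had 748, 5232 and 11 counts in GFP+ and 181, 103 and 9685 counts in GFP− libraries, and stood at no more than 0.128 of mt-Atp6. Gm29216 went the other way, with 1898, 5 and 3048 counts in GFP+ libraries and 2198, 3454 and 2 counts in GFP− libraries, near 0 where mt-Co1 was highest. Gm28438 had 86, 149 and 115 counts in GFP+ and 112, 237 and 49 counts in GFP− libraries, so that it exceeded mt-Nd3 in GFP+ replicate 1 and GFP− replicates 1 and 2 only. Even with Gm28438 added, mt-Nd3 reached 6.66 to 79.1 CPM in GFP+ and 9.32 to 81.8 CPM in GFP− libraries, below mt-Nd6 in each library. The copy of mt-Co3, Gm28437, was not among the genes analysed. The copies' part in the values of mt-Co2, mt-Co3 and mt-Nd3 was not tested, and single values of these mRNAs are uncertain.

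**Figure D3:**
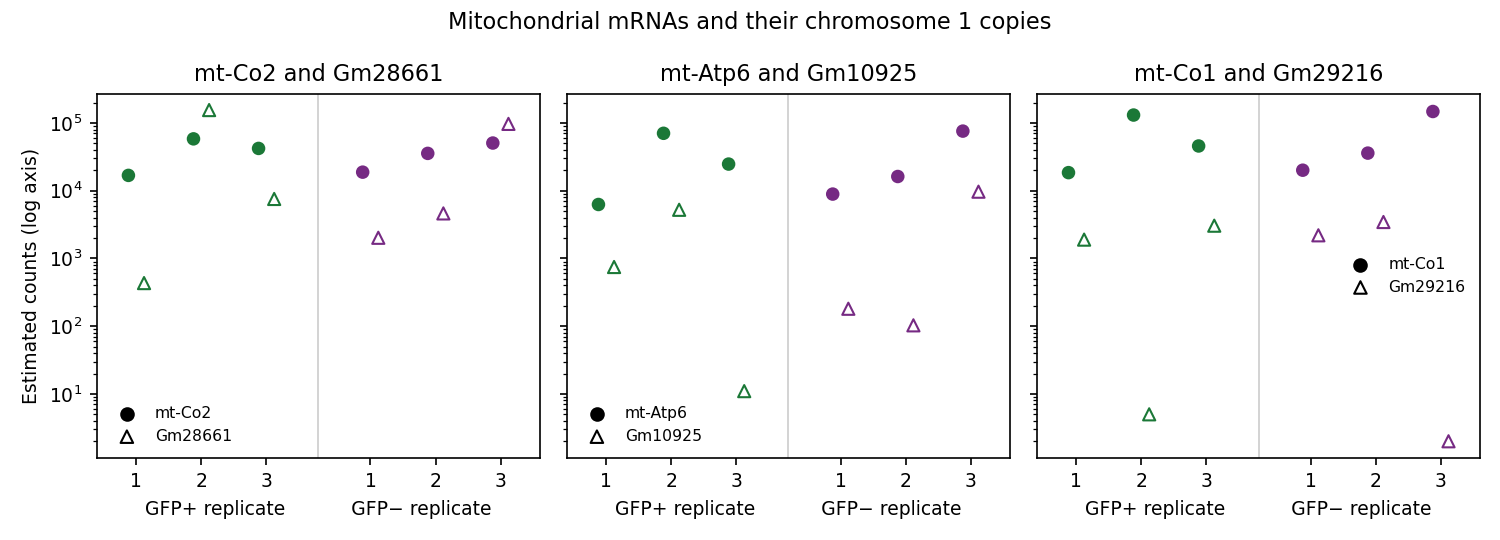
Estimated counts of 3 mitochondrial mRNAs (filled circles) and their chromosome 1 copies (open triangles) in each library, GFP+ left and GFP− right, on a log axis. Gm28661 lies above mt-Co2 in GFP+ replicate 2 and GFP− replicate 3 only, where Gm29216 stands at 5 and 2 counts.

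The mitochondrial share was also computed from mRNAs with few shared sequences. Of the 13 mRNAs, 7 share over 60% of their 31-base words with another annotated gene, whereas mt-Nd1 shares none and 6 in all share under 20%. For the summed counts of those 6 over the nuclear members, the log2 ratio was −0.22, 2.60 and 0.83 in the GFP+ libraries, against −0.33, −0.15 and 2.38 in the GFP− libraries. The same pair of libraries was again high. Of such copies 9 were analysed, the 4 described above among them. With all 9 added, mitochondrial counts were 0.740, 6.23 and 2.37% of the total in GFP+ libraries and 0.907, 1.02 and 5.37% in GFP− libraries. These sums leave out Gm28437, Gm28439 and Gm10222, which were not analysed here. They hold 99.9, 62.8 and 98.9% of the 31-base words of mt-Co3, mt-Nd4 and mt-Nd4l.

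Of the 72 nuclear members 70 passed the filter on low counts, and edgeR called 0 of them. At an unadjusted p under 0.05 there was 1, Sdhc, or 1 of 70 against the 3.23% of all genes. DESeq2 called none of 72, with Sdhc, Ndufb11 and Atp5s at an unadjusted p under 0.05 beside 5.75% of all genes, and the authors' deposited table none of the 71 with an adjusted p. Of the 70, 48 had log2 fold changes above 0 and 22 below, with a median of 0.31. With totals in place of TMM, all genes moved to a median of −0.19 and the nuclear members to 0.04, and with the replicate block to −0.24 and 0.09. The median difference by pool was −0.28, −0.35 and 1.25 in replicates 1, 2 and 3, so GFP+ replicate 3 carried the positive sign. Without GFP+ replicate 3 the median was −0.13. The plasma and B cell markers and the ribosomal protein share given above were also highest in that library, and their part in the nuclear members was not tested. There 34 of the 70 (48.6%) had their highest value, against 23.1% of all genes tested.

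**Figure D4:**
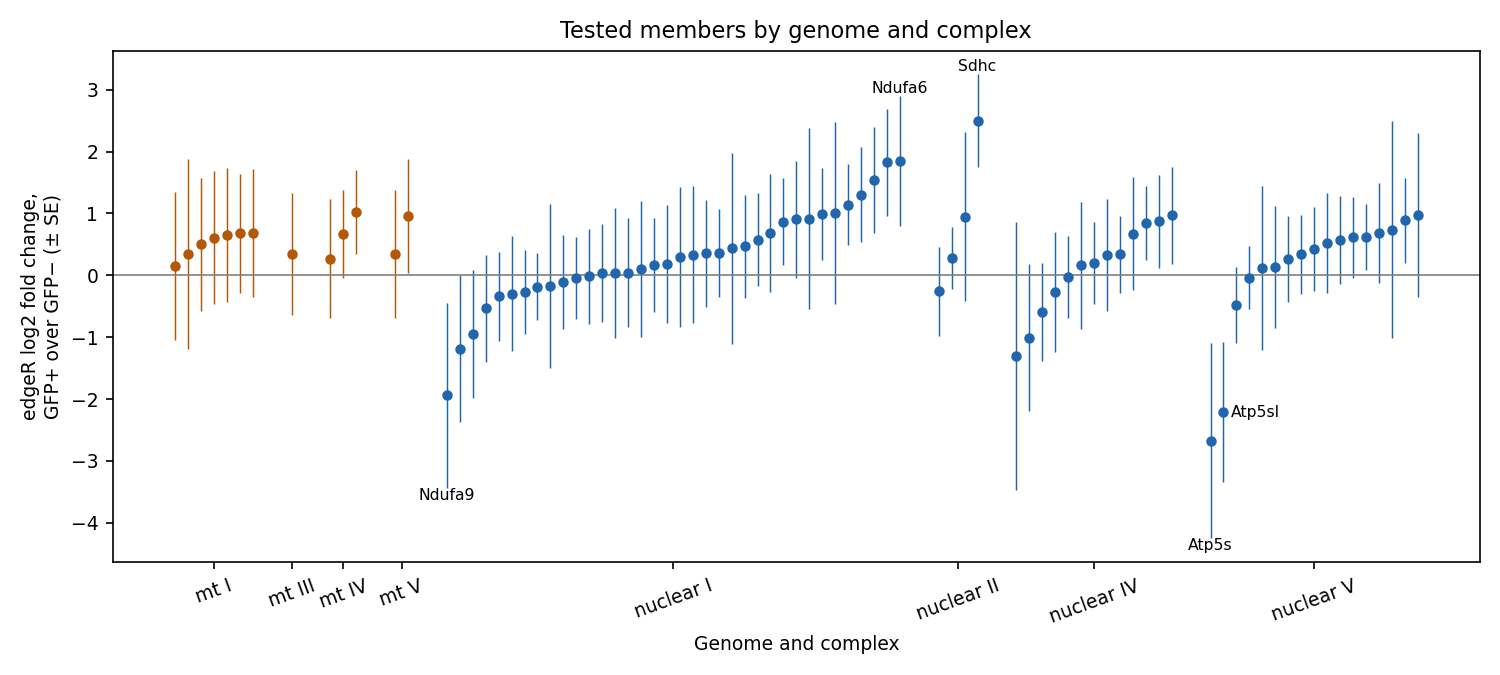
edgeR log2 fold changes (GFP+ over GFP−) with standard errors for the 83 tested members, sorted within each genome and complex, orange for mitochondrial (mt) and blue for nuclear members. Sdhc, at 2.50, is the only member with an unadjusted p under 0.05.

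Complex II held the member with the smallest p-value by edgeR. Sdhc, one of the membrane anchors of succinate dehydrogenase (chromosome 1, 171127165 to 171150603, minus strand), stood at 24.4, 114 and 120 CPM in the GFP+ libraries, against 20.3, 15.2 and 10.2 CPM in the GFP− libraries. The groups did not overlap, but GFP+ replicate 1 was close to GFP− replicate 1. Its log2 fold change was 2.50 ± 0.76 (SE), higher in 3 of 3 pairs, with an unadjusted p of 0.00774 and an adjusted p of 0.998 by edgeR. The adjusted p was 0.205 by DESeq2 and 0.0944 in the authors' deposited table. Over the alternatives tried with edgeR its fold change ranged from 1.96 to 3.24, its unadjusted p from 0.00172 to 0.0588 and its adjusted p from 0.430 to 1. The other 3 subunits had other patterns. Sdha, the flavoprotein that oxidizes succinate, stood at 221, 155 and 249 CPM in GFP+ and 212, 206 and 96.8 CPM in GFP− libraries. Sdhb, the iron-sulfur subunit, stood at 17.0, 24.7 and 25.0 CPM in GFP+ and 19.4, 37.6 and 22.6 CPM in GFP− libraries. Sdhd, the other anchor, stood at 25.4, 0.664 and 111 CPM in GFP+ and 53.3, 13.4 and 4.20 CPM in GFP− libraries, so that the anchors differed most in GFP+ replicate 2, where Sdhc was high and Sdhd near 0. The 4 genes had log2 fold changes of 2.50 for Sdhc, 0.95 for Sdhd, 0.28 for Sdha and −0.26 for Sdhb.

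Among the 36 nuclear subunits of complex I, 24 had log2 fold changes above 0 and 12 below, with a median of 0.24. Ndufs4, an accessory subunit of the electron-input arm and the one of highest mean CPM, stood at 30.3, 269 and 167 CPM in GFP+ libraries, against 36.0, 49.5 and 104 CPM in GFP− libraries. Ndufv3, an accessory subunit beside the NADH-binding site, stood at 31.3, 75.1 and 98.9 CPM in GFP+ and 33.4, 60.2 and 167 CPM in GFP− libraries. Both were lowest in replicate 1 of their group. The largest positive log2 fold changes were those of the accessory subunits Ndufa6 (1.85 ± 1.04, SE), Ndufb11 (1.83 ± 0.86) and Ndufc2 (1.54 ± 0.86). Each had its highest value in GFP+ replicate 3, at 87.5 CPM for Ndufa6, 124 CPM for Ndufb11 and 71.6 CPM for Ndufc2, while no other library exceeded 15.4, 26.3 and 18.3 CPM. The groups did not overlap for Ndufc2, whereas Ndufa6 and Ndufb11 were each higher in 2 of 3 pairs. Over the alternatives tried with edgeR the lowest fold change was −0.09 for Ndufa6, 0.47 for Ndufb11 and 0.45 for Ndufc2.

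Ndufa9, an accessory subunit of the peripheral arm, had the most negative value of complex I at −1.94 ± 1.499 (SE). It had 81, 0 and 83 counts in GFP+ libraries and 315, 449 and 191 counts in GFP− libraries, with no overlap between the groups. Ndufb3, a membrane-arm subunit, stood at 3.81, 9.71 and 2.38 CPM in GFP+ and 12.1, 19.9 and 4.28 CPM in GFP− libraries, lower in 3 of 3 pairs though the groups overlapped. Over the 70 nuclear members the groups did not overlap for 5 that were higher and 2 that were lower, where the share over all genes tested was 3.17% higher and 6.01% lower. The 5 were Sdhc, Ndufb5, Ndufb8, Ndufc2 and Atp5c1, and the 2 were Ndufa9 and Ndufa12, named here after their values were seen.

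In complex IV, 8 of 13 tested nuclear members had log2 fold changes above 0 and 5 below, with a median of 0.20. Cox7a2l, the supercomplex factor, stood at 74.8, 37.2 and 203 CPM in GFP+ and 79.4, 65.4 and 16.3 CPM in GFP− libraries. Cox4i1 stood at 39.0, 8.63 and 68.2 CPM in GFP+ and 44.6, 87.5 and 7.001 CPM in GFP− libraries. Cox6b1, which links the monomers of complex IV, stood at 35.9, 4.48 and 48.8 CPM in GFP+ and 37.2, 38.0 and 4.43 CPM in GFP− libraries. Cox7a2l, Cox4i1 and Cox6b1 shared a pattern opposite to that of most mitochondrial mRNAs. Within each group these 3 were lowest in GFP+ replicate 2 and GFP− replicate 3. Not all of complex IV did so. Cox5a was highest in GFP+ replicate 2, at 128 CPM. Among the GFP− libraries Cox5b, Cox6c and Cox7b were highest in replicate 3, at 49.9, 54.1 and 134 CPM.

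Ndufa4, a subunit of complex IV despite its name, was within each group likewise lowest in GFP+ replicate 2 and GFP− replicate 3. It stood at 38.2, 27.1 and 130 CPM in GFP+ and 55.2, 61.2 and 5.76 CPM in GFP− libraries. Cox6a1 stood at 54.1, 101 and 143 CPM in GFP+ and 75.4, 58.3 and 32.8 CPM in GFP− libraries. Cox8a, with the same pattern as Ndufa4, stood at 46.1, 31.2 and 106 CPM in GFP+ and 65.5, 65.0 and 28.7 CPM in GFP− libraries. The isoforms known from muscle or testis were at low counts. Cox6b2, known from testis, had 25, 0 and 0 counts in GFP+ libraries and 46, 18 and 0 in GFP− libraries. The muscle isoform Cox7a1 had 16, 0 and 0 counts in GFP+ and 26, 7 and 1 counts in GFP− libraries, whereas its counterpart Cox7a2 stood at 5.71, 0.664 and 22.5 CPM in GFP+ and 26.1, 18.9 and 12.99 CPM in GFP− libraries. Cox8b had 10, 0 and 0 counts in GFP+ and none in GFP− libraries. Cox7a1 and Cox8b were the members that the filter left untested.

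Atp5b, the catalytic β subunit of the ATP synthase and the most abundant nuclear member, stood at 422, 2150 and 1296 CPM in GFP+ libraries, against 569, 754 and 1894 CPM in GFP− libraries. Per kilobase it averaged 616 CPM over the 6 libraries, ahead of Cox7c at 141 and Cox6a1 at 136 CPM per kilobase and below 12 of the 13 mitochondrial mRNAs. Atp5b alone made up 0.0521, 0.172 and 0.104% of counts in GFP+ and 0.0695, 0.0862 and 0.167% in GFP− libraries. The other 71 nuclear members together made up 0.269, 0.234 and 0.366% of counts in GFP+ and 0.319, 0.308 and 0.211% in GFP− libraries. Within each group Atp5b was therefore highest, and the sum of the rest lowest, in the pair of libraries with high mitochondrial mRNAs.

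Atp5a1, the α subunit, stood at 178, 333 and 168 CPM in GFP+ and 200, 183 and 314 CPM in GFP− libraries, again highest in that pair. Atp5f1, of the peripheral stalk, stood at 40.9, 202 and 96.5 CPM in GFP+ and 58.7, 92.2 and 118 CPM in GFP− libraries. Atp5g1, which encodes the c-ring subunit, went the other way with 68.5, 45.7 and 136 CPM in GFP+ and 136, 157 and 55.9 CPM in GFP− libraries. Of the 17 Atp5 genes 13 had log2 fold changes above 0 and 4 below, with a median of 0.43. The most negative were those of Atp5s (−2.67 ± 1.58, SE) and Atp5sl (−2.21 ± 1.13), the 2 whose products lie outside the ATP synthase. Atp5s had its highest value, 21.7 CPM, in GFP− replicate 3, and Atp5sl its highest, 172 CPM, in GFP− replicate 2. Neither reached an unadjusted p under 0.05 by edgeR.

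The nuclear members also differed among themselves by transcript length, a division made after the values were seen and described without a test. Of the tested nuclear members with an annotated length, 14 were under 600 bases, 26 from 600 to under 1000 and 29 at 1000 or more. The median deviation of the 14 shortest from each gene's mean log2 (CPM + 1) was 0.15, −0.82 and 1.02 in the GFP+ libraries, against 0.43, 0.16 and −0.77 in the GFP− libraries. Atp5e, the ε subunit of the ATP synthase with a transcript of 421 bases, showed it plainly, at 25.9, 0.664 and 36.2 CPM in GFP+ and 24.5, 31.9 and 1.48 CPM in GFP− libraries. For the 26 of middle length the medians were −0.40, 0.05 and 1.03 in GFP+ and 0.08, 0.02 and −0.41 in GFP− libraries. For the 29 longest the medians were −0.19, −0.02 and 0.59 in GFP+ and 0.07, −0.03 and 0.03 in GFP− libraries. All 400 tested genes under 600 bases had medians of 0.16, −0.56 and −0.57 in GFP+ and 0.29, 0.13 and −0.11 in GFP− libraries. All 12199 genes tested, of any length, had medians of 0.09, −0.09 and −0.35 in GFP+ and 0.11, 0.07 and 0.06 in GFP− libraries. In GFP+ replicate 3 the nuclear members of every length group were thus high, those of middle length as much as the shortest. The median of all genes tested was below 0 there and that of all genes under 600 bases lower still. All 707 tested genes of 600 to under 1000 bases had a median of 0.05 in that library. The 13 mitochondrial mRNAs, some as short, had medians of −1.59, 2.03 and 0.74 in GFP+ and −1.39, −1.13 and 1.71 in GFP− libraries.

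**Figure D5:**
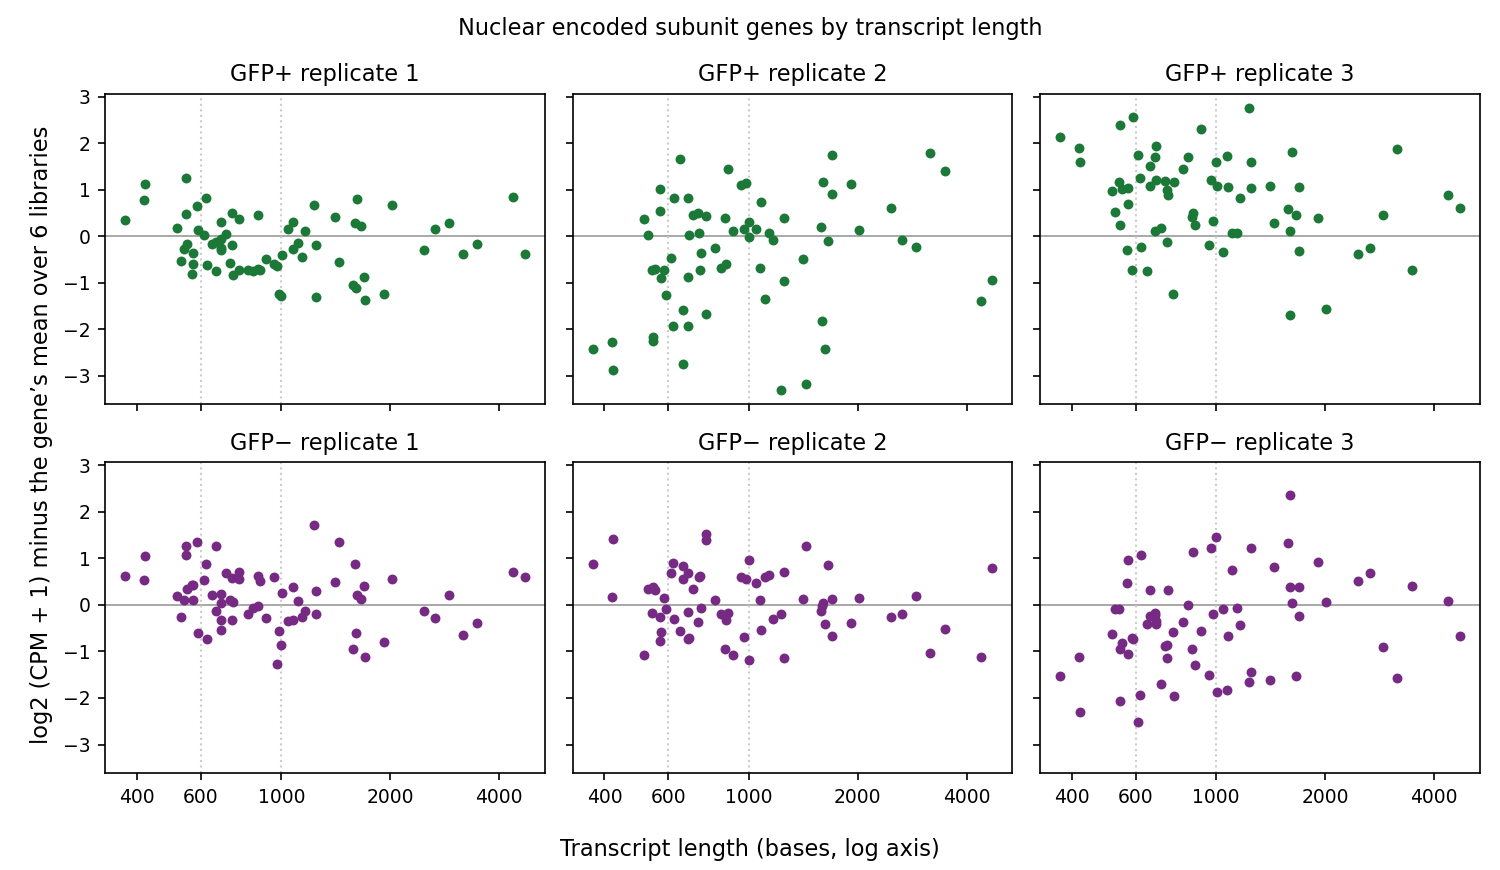
Deviation of each tested nuclear member from its mean log2 (CPM + 1) over the 6 libraries, against transcript length on a log axis, with GFP+ libraries above and GFP− below. Dotted lines mark 600 and 1000 bases. The shortest members lie mostly below 0 in GFP+ replicate 2 and GFP− replicate 3. Members of every length group lie mostly above it in GFP+ replicate 3.

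Motifs before the nuclear members were read from the RefSeq promoter windows of GRCm38.p6, 250 bases before to 50 bases after the gene start. These matched 61 of the 72 by symbol, and Sdhc was not among them. The windows compared were not matched for base composition. The motif of NRF-1, a regulator of many respiratory genes, was searched as GCGCNTGCG on both strands, overlapping matches allowed, and was in 18 of 61 windows (29.5%), against 6.59% of all 27025 windows. An ETS family motif, CCGGAAG, was in 21.3% of the member windows and 9.12% of all, and a YY1 motif, AAGATGGC, in 13.1 and 2.88%. The promoter of Sdha is shown because it holds the NRF-1 motif 3 times, marked in capitals, and is that of the complex II gene of highest level.
Sdha promoter, chr13:74350191-74350490, minus strand: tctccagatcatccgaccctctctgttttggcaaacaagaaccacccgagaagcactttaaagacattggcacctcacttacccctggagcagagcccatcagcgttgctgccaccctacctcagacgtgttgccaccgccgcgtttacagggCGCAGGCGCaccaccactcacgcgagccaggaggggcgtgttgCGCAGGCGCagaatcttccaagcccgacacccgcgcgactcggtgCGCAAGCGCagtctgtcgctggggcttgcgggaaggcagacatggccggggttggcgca
A match describes letters in this window and is not evidence of binding in these cells.

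Factors that act on mitochondrial DNA and its transcripts were read from a list of 34 genes, of which 30 were tested, 12 with fold changes above 0 and 18 below, none called. Tfam, which packages mitochondrial DNA and starts its transcription, stood at 52.0, 20.1 and 29.0 CPM in GFP+ and 72.3, 22.2 and 6.69 CPM in GFP− libraries. Polrmt, the mitochondrial RNA polymerase, stood at 9.33, 0.332 and 141 CPM in GFP+ and 39.9, 65.04 and 38.3 CPM in GFP− libraries. Lrpprc, which stabilizes mitochondrial mRNAs, stood at 75.8, 62.5 and 174 CPM in GFP+ and 66.6, 61.8 and 53.5 CPM in GFP− libraries. None of the 3 was highest in GFP+ replicate 2 or GFP− replicate 3, the libraries of highest mitochondrial share. Mterf3, a regulator of mitochondrial transcription and the most abundant of the list, was higher there, at 99.8, 242 and 64.9 CPM in GFP+ and 49.9, 38.6 and 155 CPM in GFP− libraries. Elac2, which trims transfer RNAs at their 3′ ends, had 20.9, 5.64 and 13.4 CPM in GFP+ and 17.6, 31.4 and 142 CPM in GFP− libraries. It was the only list member at an unadjusted p under 0.05 by edgeR (0.0353), with a log2 fold change of −2.25. Over the alternatives tried with edgeR its fold change ranged from −3.12 to −0.52.

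Of 19 nuclear regulators, 16 were tested, 8 in each direction and none called. Nrf1, which encodes NRF-1, stood at 78.0, 7.30 and 46.2 CPM in GFP+ and 44.2, 118 and 77.9 CPM in GFP− libraries. The coactivator gene Ppargc1a had 92, 43 and 0 counts in GFP+ and 31, 216 and 172 counts in GFP− libraries. Pparg, a nuclear receptor, was the member with an unadjusted p under 0.05 by edgeR. It stood at 25.1, 29.0 and 268 CPM in GFP+ and 19.4, 23.7 and 18.8 CPM in GFP− libraries, with its highest value in GFP+ replicate 3. Over the alternatives tried with edgeR its log2 fold change ranged from 0.33 to 2.93. Cycs, cytochrome c, the carrier between complexes III and IV, stood at 27.4, 85.5 and 106 CPM in GFP+ and 59.9, 38.9 and 48.5 CPM in GFP− libraries, and Cyc1, cytochrome c1, a catalytic subunit of complex III, at 20.9, 33.6 and 26.9 CPM in GFP+ and 34.9, 61.1 and 25.3 CPM in GFP− libraries. For both, the groups overlapped.

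Assembly factors were not called either. Of 16 for complex I, 6 had fold changes above 0 and 10 below. Ndufaf7, a methyltransferase of the complex, stood at 18.02, 50.05 and 168 CPM in GFP+ and 10.2, 13.4 and 18.5 CPM in GFP− libraries, and Ndufaf3 at 3.30, 2.57 and 0.119 CPM in GFP+ and 39.8, 5.52 and 19.2 CPM in GFP− libraries. These 2 had unadjusted p-values of 0.0157 and 0.0330 by edgeR and opposite directions. Of 28 tested factors for complexes II to V, 21 had fold changes above 0 and 7 below, with a median of 0.53. Cox10, which makes heme for complex IV, stood at 104, 39.7 and 185 CPM in GFP+ and 35.3, 41.0 and 39.7 CPM in GFP− libraries, with an unadjusted p of 0.0412 by edgeR. Cox20, a chaperone of the mt-Co2 protein, stood at 21.4, 552 and 49.1 CPM in GFP+ and 22.2, 48.5 and 241 CPM in GFP− libraries, so it was high in the same pair of libraries as the mitochondrial mRNAs. Of 18 tested translation factors 9 lay on either side of 0, and Gfm1, an elongation factor, stood at 75.1, 38.3 and 251 CPM in GFP+ and 99.1, 88.3 and 61.8 CPM in GFP− libraries.

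Pathways that feed the chain were read from further lists. Of 23 genes of the tricarboxylic acid cycle and pyruvate entry, 14 had fold changes above 0 and 9 below, with a median of 0.32 and none called. Pdha1, a subunit of pyruvate dehydrogenase, stood at 116, 734 and 176 CPM in GFP+ and 104, 91.7 and 134 CPM in GFP− libraries, and its kinase Pdk2 at 34.6, 136 and 394 CPM in GFP+ and 32.3, 17.4 and 63.2 CPM in GFP− libraries. Each was higher in 3 of 3 pairs, with unadjusted p-values of 0.0415 and 0.0219 by edgeR. Over the alternatives tried with edgeR the lowest log2 fold change was 0.29 for Pdha1 and 1.19 for Pdk2. Of 23 glycolysis genes, 15 had fold changes above 0 and 8 below, with a median of 0.23. Gapdh stood at 430, 1343 and 1293 CPM in GFP+ and 662, 766 and 979 CPM in GFP− libraries. Pfkl, a phosphofructokinase, had an unadjusted p of 0.0156 by edgeR, from 1380 CPM in GFP+ replicate 3 and 10.7 to 20.7 CPM in the other libraries. Of 9 antioxidant genes tested, 6 lay above 0 and 3 below. Cat, catalase, stood at 102, 876 and 238 CPM in GFP+ and 149, 202 and 1028 CPM in GFP− libraries, once more high in the libraries of high mitochondrial share. Some other genes were thus high there too, but a smaller share than of the mitochondrial mRNAs. Of the 13 mitochondrial mRNAs, 53.8% were highest in GFP+ replicate 2 and 30.8% in GFP− replicate 3. Over all genes tested, 19.9% were highest in GFP+ replicate 2 and 20.1% in GFP− replicate 3, while 24.1 and 15.4% were lowest there. The ILC precursor genes also summed highest in these libraries, at 16599 and 14992 CPM.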

How the data were processed

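RNA was measured in 3 GFP+ and 3 GFP− libraries. Per the labels' protocols, total RNA was amplified by single primer isothermal amplification, depleted of ribosomal RNA and read as paired ends of 75 bases. The authors deposited estimated counts, one value per gene and library, not normalized between libraries. Per the file headers it also holds the authors' DESeq2 log2 fold changes with errors, a Wald statistic as a score, p-values with adjusted p-values and a mean signal per gene. GRCm38 is the build, and kallisto, Bowtie2, Trimmomatic and DESeq2 are the tools, per the submitters' processing notes, which give no roles. The 21 symbols read as dates stayed in the tests. Symbols sorting after Trappc10 were not analysed here. All per-sample columns matched the labels, which do not say whether counting used strand, so mt-Nd5 and mt-Nd6, which overlap, are uncertain.

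Estimated counts were rounded and tested with edgeR 4.0.16 (quasi-likelihood, robust, TMM scaling, filterByExpr, group as only term) in R 4.3.3, with Benjamini-Hochberg adjustment over all genes tested and a threshold of 0.05. DESeq2 1.42.0 was run beside it. The code was tested on simulated data. Standard errors are the log2 fold change over the root of F. CPM are TMM scaled, and log2 differences by library or pool are of CPM + 1. GENCODE vM21 gave positions, transcripts and 31-base words shared between genes. Figures were drawn with matplotlib 3.10.9.

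The labels give both fractions of a replicate 1 pool of mice, so the replicate numbers pair the libraries. Deviations from group means correlated at 0.161, −0.121 and −0.131 within pools 1, 2 and 3. The highest correlation across pools was 0.253, for GFP+ replicate 2 with GFP− replicate 3.

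The members, the 16 gene lists and the tests were chosen with earlier results of these data known. Named were all mitochondrial members, nuclear members at an unadjusted p under 0.05, those of highest mean CPM per complex and the next 4, the 4 largest fold changes each way with a mean of at least 20 counts, the Sdh genes and isoform pairs. Of each pathway list came up to 4 members at an unadjusted p under 0.05 and the most abundant one, plus 7 genes fixed by name. Other genes were named after their values were seen. Alternatives were the replicate block, other scaling, other filters, DESeq2, single libraries left out and other sums for the ratio.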

Additional observations from a re-analysis of the deposited data

How the results depend on the processing

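edgeR called 0 members and 0 genes under each alternative run with it, including the replicate block, which changed no call, with 209 genes at an unadjusted p under 0.05 under the block and 394 without it. DESeq2 called 60 genes of the whole table and 0 members. The median log2 fold change of the mitochondrial mRNAs was 0.61, and 0.51 with the block, 0.41 with library totals and 0.65 with DESeq2. Leaving out a library or a replicate moved it between −0.97 and 2.40. For the nuclear members these values were 0.31, 0.09, 0.04 and 0.39, and −0.29 to 0.64 with libraries left out. The mitochondrial to nuclear log2 ratio differed between groups by 0.34, and by 0.35 with the copies added, 0.53 as a mean over genes, 0.34 without the most abundant members and 0.44 for genes with few shared words, an alternative added after seeing the data. It ranged from −0.67 to 1.18 with libraries left out and was 0.48 without GFP+ replicate 2 and GFP− replicate 3, also added later. The table holds no mitochondrial ribosomal or transfer RNA among the genes analysed, so the sum with them equals the one used. The common biological coefficient of variation was 0.922. For Cox8b, at 0 to 10 counts, no difference was detectable at this depth.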

Other observations

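Markers of other cell types in the same libraries, tested over all genes, gave no call by edgeR. Of 8 tested plasma and B cell markers 6 had log2 fold changes above 0, and the adaptor gene Blnk stood at 4.00, 24.0 and 19.4 CPM in GFP+ and 3.08, 1.65 and 2.02 CPM in GFP− libraries, with no overlap between the groups. The 10 myeloid markers in the table summed to 932, 33.2 and 1687 CPM in the GFP+ libraries, against 393, 183 and 288 CPM in the GFP− libraries, with Lyz2, lysozyme, the most abundant. The 10 erythroid markers summed to 128, 26.6 and 271 CPM in GFP+ and 73.5, 58.1 and 90.9 CPM in GFP− libraries, of which Car2 gave 84.8, 26.5 and 115 CPM in GFP+ and 39.6, 10.6 and 12.2 CPM in GFP− libraries. Of 6 tested mast cell and basophil markers 1 had a log2 fold change above 0 and 5 below, with a median of −0.85. The 1 above was that of Cpa3, a mast cell protease, at 329, 1200 and 982 CPM in GFP+ and 149, 161 and 498 CPM in GFP− libraries. Of 14 T and NK cell markers 6 had fold changes above 0 and 8 below, with a median of −0.31. The groups did not overlap for 2 of the 14, Ncr1 and Gzma, both lower. Over all genes tested the share without overlap was 3.17% higher and 6.01% lower. Cd3e, which had the highest single value of the list, stood at 163, 79.4 and 0 CPM in GFP+ and 60.4, 32.5 and 7.31 CPM in GFP− libraries. DESeq2 called 2 of the markers of other cell types lower in GFP+ ILCPs, beside 0.411% of all genes with an adjusted p. These 2 were chosen for mention after their values were seen. Gzma, a cytotoxic granule protease, had no counts in GFP+ libraries and 118, 114 and 90 in GFP− libraries (DESeq2 adjusted p = 0.000158), and Fcer1a, a chain of the IgE receptor, had none in GFP+ libraries and 38, 12 and 249 in GFP− libraries (DESeq2 adjusted p = 0.00545), and was not tested by edgeR. The part of these cell types in the values of the oxidative phosphorylation genes was not tested.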
